A study of Mus musculus with 4 samples.

Results

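The 10 genes described here are transcription factors and marker proteins of the epithelial-mesenchymal transition (EMT). They are the zinc-finger factors Zeb1, Zeb2, Snai1 and Snai2, the helix-loop-helix factors Twist1 and Twist2, the cadherins Cdh1 and Cdh2, the filament protein Vim and the growth factor receptor Pdgfra. They were taken by gene name from a table of 52636 genes, and all 10 were listed there. Expression had been measured by RNA-seq in Myc-CaP cells, a mouse prostate cancer line with the label FVB; Hi-Myc transgenic. One line stably carried shRNAs targeting FAK, the focal adhesion kinase encoded by Ptk2 (shFAK), and the other a negative control (shNC). The 4 groups were shFAK with norepinephrine, shFAK with vehicle, shNC with norepinephrine and shNC with vehicle. Treatment was for 24 h, norepinephrine was at 10 µM, and every group had the same Hi-Myc background and 1 library. The labels do not say how many clones or infections each line came from. No difference below has a replicate check, and an effect of the hairpin cannot be told apart from other ways in which the lines differ.

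In EMT, epithelial cells loosen their junctions and take on the shape and movement of mesenchymal cells. SNAIL, ZEB and TWIST factors repress the E-cadherin gene Cdh1 and other junction genes, and the change is often read from lower E-cadherin and higher N-cadherin and vimentin. E-cadherin holds epithelial cells together and is linked to actin through catenins. FAK relays signals from integrins at cell-matrix contacts.

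The libraries held 23410486 to 29948640 counts. Ptk2, the targeted gene, had 1248 and 1294 counts in the shFAK norepinephrine and vehicle libraries, against 3158 and 3547 in the shNC norepinephrine and vehicle libraries. Its level in shFAK was 43.9% of shNC with norepinephrine (99% counting interval 40.2% to 47.8%) and 40.8% with vehicle (37.4% to 44.3%). Of the luminal prostate markers, Foxa1 averaged 494 and Hoxb13 55.5 TPM (counts scaled by gene length and library total). Epcam and Krt18, which define luminal epithelium, had at most 15 and 4 counts in any library. Markers of endothelium had at most 5 counts. Of 4 leukocyte markers, Cd68 had 24 to 36 counts and Ptprc at most 1.

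The levels of the 10 genes covered several orders of magnitude, with vimentin far above the rest. Vim, the main intermediate filament of mesenchymal cells, was at 936 TPM in shFAK norepinephrine, 1005 in shFAK vehicle, 842 in shNC norepinephrine and 918 in shNC vehicle. It ranked between place 124 and place 174 among the protein-coding genes of each library. Twist2 averaged 9.89 TPM over the 4 libraries, Zeb2 5.17 and Pdgfra 2.95. These 4 genes, all of the 10 that did so, reached a CPM (counts scaled by effective library size) of 1 in at least 1 library, the filter used for the comparisons across genes. The other genes were Snai2 at 0.804 TPM, Twist1 at 0.587, Snai1 at 0.387, Cdh1 at 0.0811, Zeb1 at 0.0340 and Cdh2 at 0.

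**Figure D1:**
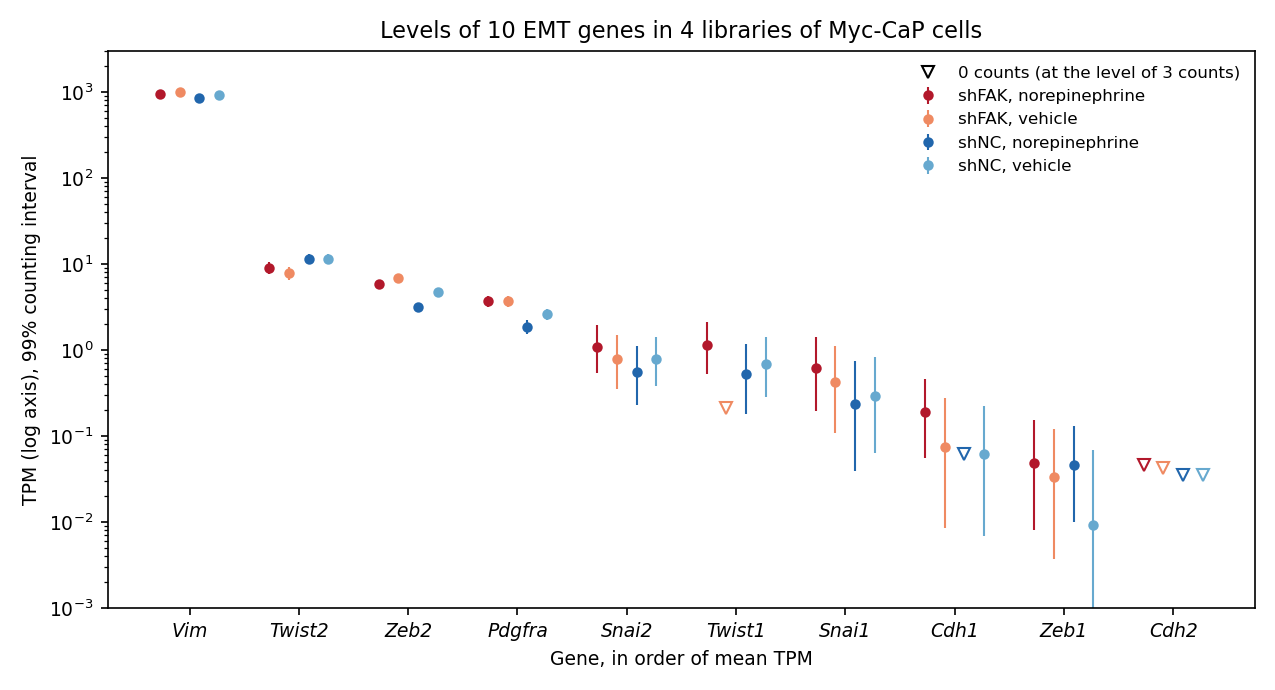
TPM (log axis) of the 10 genes in the 4 libraries, ordered by mean, with 99% Poisson counting intervals; open triangles mark libraries at 0 counts, drawn at the level that 3 counts would give. Vim sits near 842 to 1005 TPM, Twist2, Zeb2 and Pdgfra between 1.86 and 11.5, and the other genes near or below 1.

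The order from Vim to Twist2, Zeb2, Pdgfra and Snai2 was the same in all 4 libraries. The intervals of Twist2 and Zeb2 were apart in 3 of the 4, and those of the other neighbours down to Snai2 in all 4. From Snai2 downward no pair of neighbours had intervals apart in any library, so their order was not resolved at this depth. The 9 detected genes kept the same order when scaled by coding length in place of the deposited gene length.

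The 2 ZEB genes were unequal. Zeb1 (ENSMUSG00000024238, chromosome 18, 5591860 to 5775467, mm10) had 4 and 3 counts in the shFAK norepinephrine and vehicle libraries, and 5 and 1 in the shNC norepinephrine and vehicle libraries. Zeb2 (ENSMUSG00000026872, chromosome 2, 44983632 to 45117395, minus strand) had 948 and 1214 counts in shFAK norepinephrine and vehicle, and 673 and 1010 in shNC norepinephrine and vehicle. Both encode zinc-finger repressors that bind paired CACCT sequences. Per length, Zeb2 was at 5.85 and 6.90 TPM in shFAK and 3.18 and 4.75 TPM in shNC, and Zeb1 was at 0.0480 TPM or less in every library. The intervals of the 2 genes were far apart in every library.

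The TWIST genes were unequal too, and both SNAIL genes were low. Twist2 (ENSMUSG00000007805, chromosome 1, 91801461 to 91848028) had 231 and 219 counts in shFAK norepinephrine and vehicle, and 387 and 381 in shNC norepinephrine and vehicle. Twist1 (ENSMUSG00000035799, chromosome 12, 33957671 to 33959829), its close relative and the family member most used as an EMT marker, had 15 and 0 counts in shFAK norepinephrine and vehicle, and 9 and 12 in shNC norepinephrine and vehicle. Snai2 (ENSMUSG00000022676, chromosome 16, 14705852 to 14709395), the SLUG repressor, had 18 and 14 counts in shFAK, and 12 and 17 in shNC, norepinephrine first in each. Snai1 (ENSMUSG00000042821, chromosome 2, 167538195 to 167542814), the SNAIL repressor, had 8 and 6 in shFAK, and 4 and 5 in shNC, in the same order. Counts this small leave a wide range: the 99% intervals of Snai1 run from 0.0391 to 1.41 TPM over the libraries.

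Both cadherins were at or near 0. Cdh2 (ENSMUSG00000024304, chromosome 18, 16588877 to 16809246), N-cadherin, had 0 counts in all 4 libraries. The 99% intervals of these 0 counts reached 0.0616 to 0.0809 TPM. Cdh1 (ENSMUSG00000000303, chromosome 8, 106603351 to 106670246), E-cadherin, had 7 and 3 counts in shFAK norepinephrine and vehicle, and 0 and 3 in shNC norepinephrine and vehicle. No library exceeded 0.188 TPM for Cdh1. The high vimentin and low E-cadherin transcript levels were present in shNC with vehicle as in the other groups.

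Most other cadherins were also near 0, while catenins were abundant. Of 20 other listed cadherins, 8 had 0 counts in all 4 libraries and 15 had at most 3 in any. Cdh24, a type II cadherin, was the only one to pass the filter, at 21.5 and 17.0 TPM in shFAK norepinephrine and vehicle, and 11.2 and 12.9 TPM in shNC norepinephrine and vehicle. Cdh3, P-cadherin, had at most 12 counts and Cdh17 at most 26. Ctnnb1 (beta-catenin) averaged 246 TPM and Ctnna1 (alpha-catenin) 233 TPM. Ctnnd1 (p120-catenin) averaged 12.5 TPM and Jup (plakoglobin) 17.8 TPM.

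**Figure D2:**
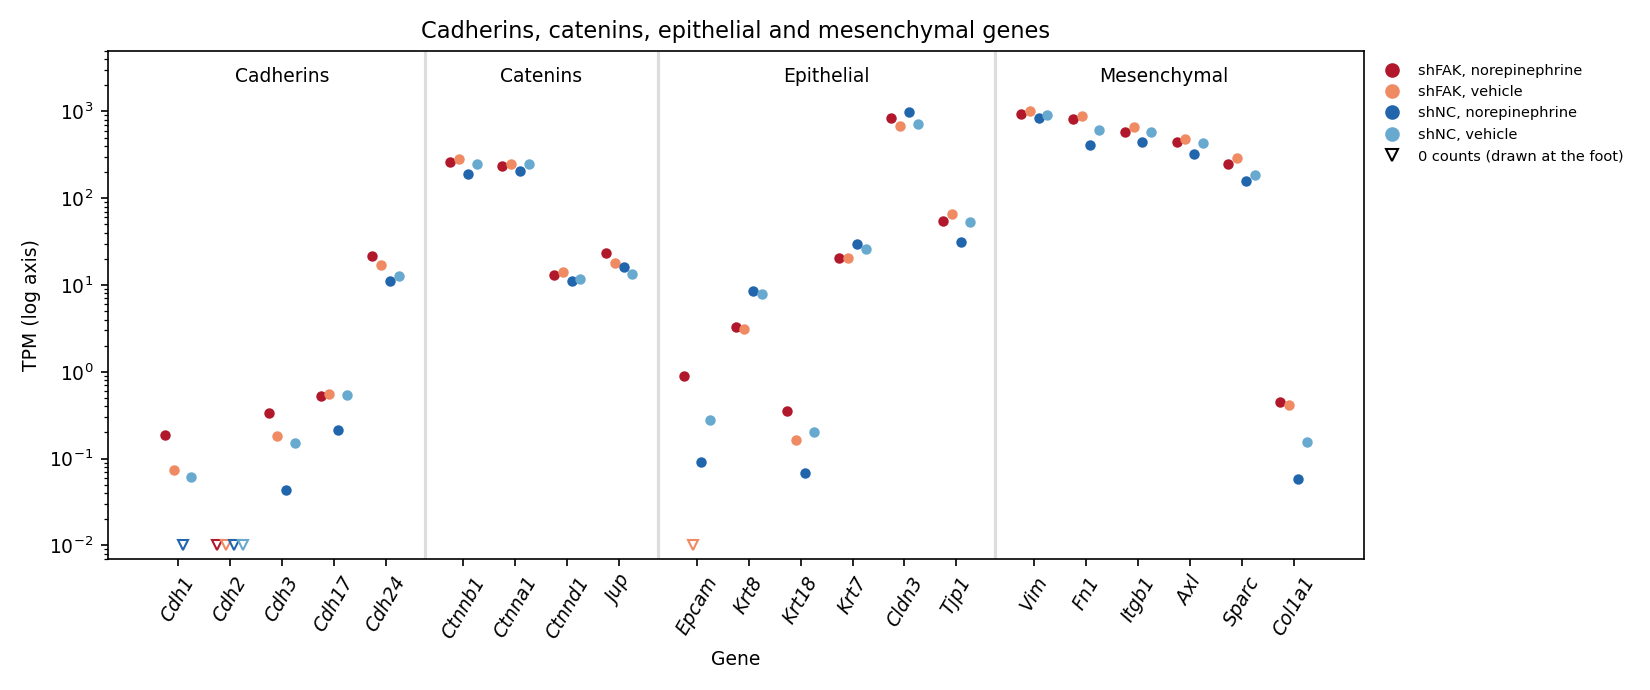
TPM (log axis) of cadherins, catenins and selected epithelial and mesenchymal genes in the 4 libraries, 1 point per library; open triangles at the foot mark 0 counts. The genes drawn were chosen after their values were seen. Cdh1 and Cdh2 lie at the bottom with Epcam and Krt18, while Ctnnb1, Cldn3, Vim and Fn1 lie above 100 TPM.

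Some epithelial and some mesenchymal genes outside the 10 were present together, while others of both kinds were near 0. Among 20 epithelial genes, the tight junction gene Cldn3 averaged 802 TPM, the protease inhibitor Spint2 130.4 and the tight junction scaffold Tjp1 50.8, and 11 passed the filter. Another 4, Cldn7, Ocln, Dsp and Mal2, had at most 3 counts in every library. Krt8, a luminal keratin, averaged 5.75 TPM and has near-identical copies at 2 other loci, so its counts are uncertain. Of 20 mesenchymal genes, 11 passed the filter, with Fn1 (fibronectin) at 679 TPM, Itgb1 at 569, the kinase Axl at 422 and Sparc at 221. The fibrillar collagens Col1a2 and Col3a1 had at most 1 and 0 counts. Among 14 regulators of the epithelial state, Esrp2, a splicing factor, averaged 44.9 TPM, Grhl2 15.3 and Klf4 23.6, while Esrp1 had at most 1 count. Transcripts for partners of the SNAIL, ZEB and TWIST factors were plentiful. Ctbp1, a corepressor bound by ZEB proteins, averaged 299 TPM, Ajuba, bound by SNAIL proteins, 343, and Tcf3, a dimer partner of TWIST proteins, 260.1.

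The first comparison asked how the 10 genes differed between the shFAK and shNC lines. Zeb2 and Pdgfra were higher and Twist2 lower in shFAK under both treatments, each by less than 2-fold. Vim differed by at most 0.08 on the log2 scale. Of the remaining genes only Twist1, with vehicle, had an interval that left out 0.

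Zeb2 was at 39.5 CPM in shFAK and 25.2 CPM in shNC with norepinephrine, a log2 ratio of 0.64 (99% interval 0.46 to 0.83). With vehicle it was at 45.8 CPM in shFAK and 34.1 CPM in shNC, a log2 ratio of 0.42 (0.26 to 0.58). Both shFAK libraries were above both shNC libraries. In bulk RNA, fewer expressing cells and less RNA per cell cannot be told apart.

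Pdgfra (ENSMUSG00000029231, chromosome 5, 75152292 to 75198215), the receptor for platelet-derived growth factors that marks many mesenchymal cells, had 299 and 326 counts in shFAK norepinephrine and vehicle, and 198 and 276 in shNC norepinephrine and vehicle. It was at 12.4 CPM in shFAK and 7.43 CPM in shNC with norepinephrine, a log2 ratio of 0.74 (0.40 to 1.09). With vehicle the values were 12.3 CPM in shFAK and 9.32 CPM in shNC, a log2 ratio of 0.40 (0.09 to 0.71). The shFAK and shNC libraries did not overlap.

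Of 8 markers of fibroblasts, which also express Pdgfra, only Col1a1 passed the filter. Its interval left out 0 with norepinephrine, where it was higher in shFAK, and not with vehicle. The 8 markers summed to 1.17 and 0.980 CPM in shFAK norepinephrine and vehicle, and 0.225 and 0.405 CPM in shNC norepinephrine and vehicle. Of these, 7 had at most 3 counts in every library, and 4, among them the defining markers Dcn and Lum, had 0. The sum was nearly all Col1a1, with 24 and 24 counts in shFAK and 4 and 11 in shNC, norepinephrine first in each. Their part in the Pdgfra result was not tested.

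Twist2 went the other way. It was at 9.62 CPM in shFAK and 14.5 CPM in shNC with norepinephrine, a log2 ratio of -0.59 (-0.91 to -0.28). With vehicle it was at 8.25 CPM in shFAK and 12.9 CPM in shNC, a log2 ratio of -0.64 (-0.96 to -0.32). Both shFAK libraries were below both shNC libraries. The antisense gene Gm29100 shares a long stretch with Twist2 transcripts and had 58 and 77 counts in shFAK norepinephrine and vehicle, and 54 and 73 in shNC norepinephrine and vehicle. The library kit does not mark strand, so reads of the pair cannot be told apart.

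Vim had 36048 and 42031 counts in shFAK norepinephrine and vehicle, and 42341 and 46449 in shNC norepinephrine and vehicle. Scaled to library size these were 1501 and 1584 CPM in shFAK, and 1588 and 1568 CPM in shNC. The log2 ratio was -0.08 (-0.11 to -0.05) with norepinephrine and 0.01 (-0.01 to 0.04) with vehicle. With library size as the only scaling the norepinephrine ratio was 0.01, so its sign rested on the scaling.

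Twist1 had 0 counts in shFAK vehicle and 12 in shNC vehicle. The 99% interval of that ratio ended at 62.0% of the shNC level. With norepinephrine it had 15 counts in shFAK and 9 in shNC, a log2 ratio of 0.76 (-0.76 to 2.69). Cdh1 had 7 counts in shFAK and 0 in shNC with norepinephrine, and the interval of the ratio, from 98.1% of the shNC level upward, took in no difference. With vehicle it had 3 counts in each line.

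Snai1, Snai2 and Zeb1 were not distinguishable between the lines at this depth. Snai2 had log2 ratios of 0.65 (-0.72 to 2.29) with norepinephrine and -0.11 (-1.60 to 1.31) with vehicle. Snai1 had 0.86 (-1.27 to 4.06) and 0.30 (-2.14 to 3.11), in the same order. All these intervals but that of Snai2 with norepinephrine take in 2-fold differences in either direction.

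**Figure D3:**
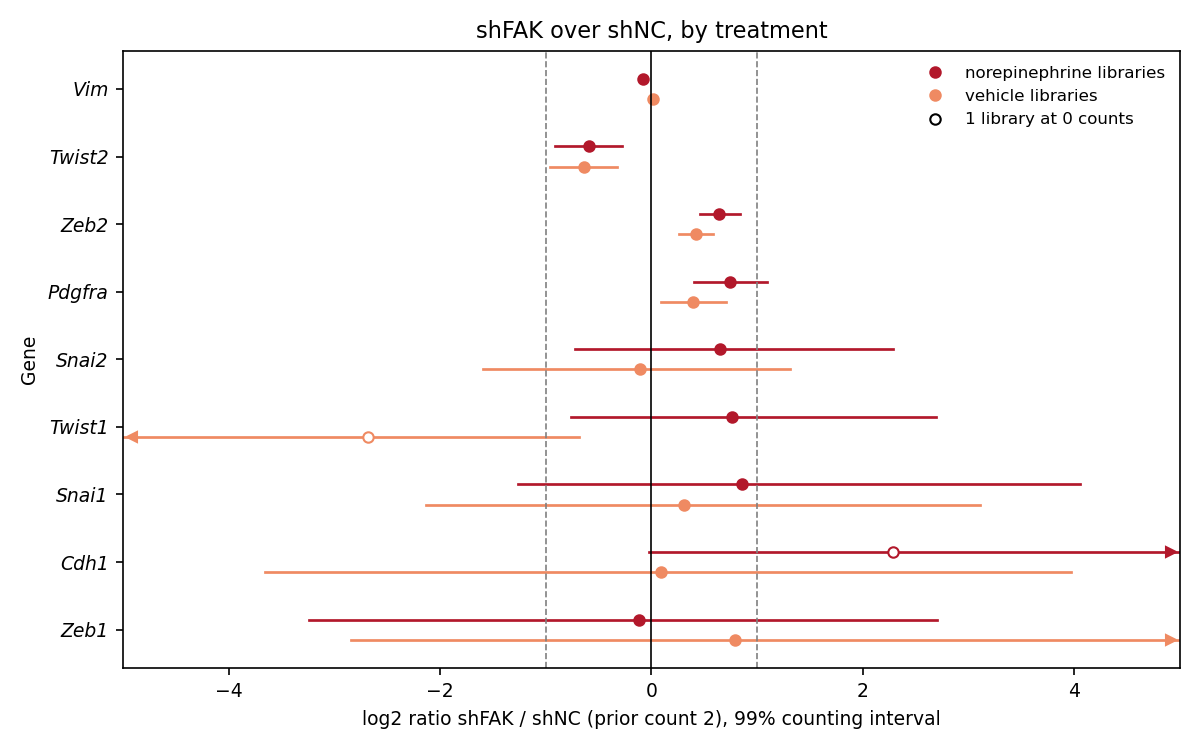
log2 ratios of shFAK over shNC for the 9 detected genes, norepinephrine libraries above vehicle libraries, with 99% counting intervals (arrows run past the axis, open points have 1 library at 0 and depend on the prior count of 2; dashed lines mark 2-fold). Zeb2 and Pdgfra lie right of 0 and Twist2 left of 0 in both pairs.

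These counts were read against all 12351 genes that passed the filter. The interval left out 0 for 4 of the 9 detected genes with norepinephrine (Zeb2, Twist2, Vim and Pdgfra), beside 53.5% of all genes. With vehicle it did so for 4 of 9 (Zeb2, Twist1, Twist2 and Pdgfra), beside 41.9% of all genes. At 1.5-fold or more, 3 genes passed with norepinephrine, beside 11.3% of all genes, and 2 with vehicle, beside 5.29%. At 2-fold or more, 0 passed with norepinephrine, beside 3.25%, and Twist1 alone with vehicle, beside 1.88%. The shFAK and shNC libraries did not overlap for 3 of the 4 genes past the filter, beside 59.4% of all genes, with 2 higher in shFAK (beside 30.3%) and 1 lower (beside 29.2%). Of the 9 detected genes 5 were under the filter, with few counts, so their share and that of all genes are not over like genes.

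Gene length moved with these ratios. The deposited length of Zeb2 is 19942 bases, and only 78 of the 12351 genes were longer. Pdgfra has 10024 bases, Vim 4743 and Twist2 3174. In the 1236 longest genes the median log2 ratio of shFAK over shNC was 0.34 with norepinephrine and 0.16 with vehicle, against 0.02 and 0.00 over all genes.

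With a smooth trend of each library with length taken off, Zeb2 was at 0.17 (-0.02 to 0.36) with norepinephrine and no longer left out 0, and at 0.19 (0.04 to 0.35) with vehicle, where it still did. Pdgfra was at 0.42 (0.08 to 0.78) with norepinephrine and at 0.24 (-0.06 to 0.56) with vehicle, where its interval no longer left out 0. Twist2 was at -0.61 (-0.93 to -0.30) with norepinephrine and at -0.66 (-0.99 to -0.35) with vehicle. The Twist2 difference was thus as large without the trend, and those of Zeb2 and Pdgfra were smaller.

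**Figure D4:**
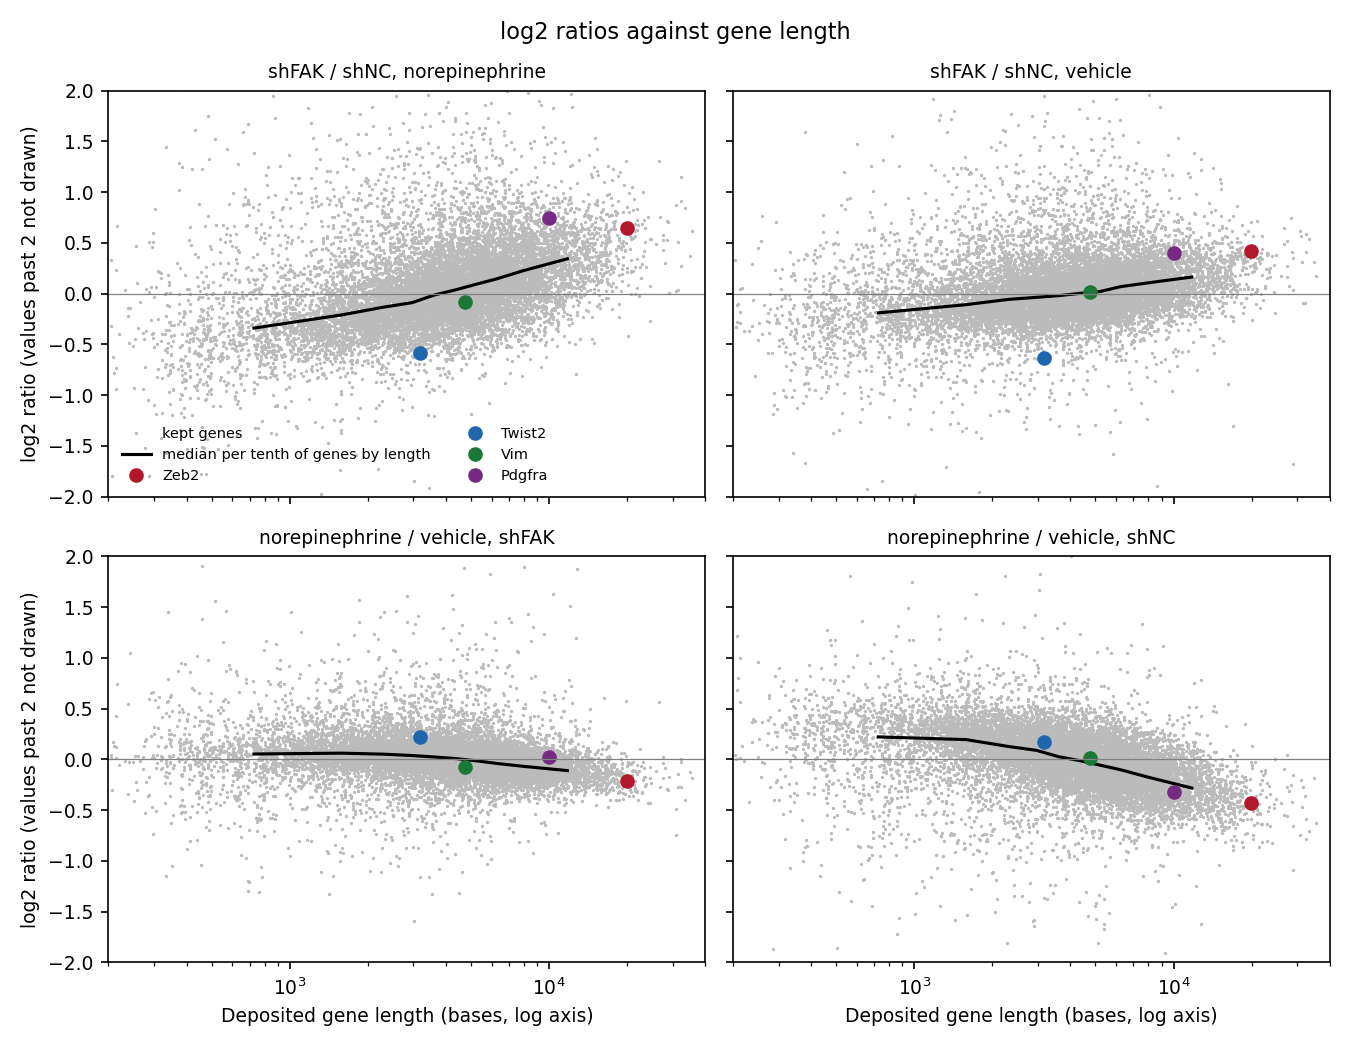
log2 ratio against deposited gene length (log axis) for the 12351 kept genes (grey), with the median of successive equal bins of genes by length (black) and the 4 genes past the filter in colour; values past 2 on the log2 scale are not drawn. Zeb2 lies near the long end, where the medians are above 0 for shFAK over shNC and below 0 for norepinephrine over vehicle.

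The promoter of Snai1 is shown because its window holds the E-box that SNAIL and ZEB proteins bind. Shown with it are those of the factor and the receptor higher in shFAK and the factor that was lower, 4 promoters in all. Each is the 250 bases before the RefSeq start site in GRCm38.p6, the C57BL/6J reference and not the FVB cells, read 5′ to 3′ on the strand of the gene. Capitals mark CACCT on either strand (CACCT or AGGTG).
Zeb2 (chr2:45117443-45117692, minus strand): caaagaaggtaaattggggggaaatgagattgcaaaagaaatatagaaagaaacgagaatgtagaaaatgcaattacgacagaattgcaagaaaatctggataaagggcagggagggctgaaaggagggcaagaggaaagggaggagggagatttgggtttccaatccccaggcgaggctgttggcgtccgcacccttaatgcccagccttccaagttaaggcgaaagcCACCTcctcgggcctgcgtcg
Pdgfra (chr5:75152001-75152250, plus strand): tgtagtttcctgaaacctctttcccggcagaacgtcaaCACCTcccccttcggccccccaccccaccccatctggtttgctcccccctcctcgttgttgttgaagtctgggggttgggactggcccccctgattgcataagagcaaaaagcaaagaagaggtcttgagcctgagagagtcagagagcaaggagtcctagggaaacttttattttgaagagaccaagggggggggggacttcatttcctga
Twist2 (chr1:91801211-91801460, plus strand): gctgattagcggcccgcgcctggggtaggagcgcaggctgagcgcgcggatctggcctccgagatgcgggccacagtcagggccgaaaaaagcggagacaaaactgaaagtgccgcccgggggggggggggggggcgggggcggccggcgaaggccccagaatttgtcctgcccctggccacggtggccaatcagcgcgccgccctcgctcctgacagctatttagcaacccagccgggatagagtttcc
Snai1 (chr2:167537945-167538194, plus strand): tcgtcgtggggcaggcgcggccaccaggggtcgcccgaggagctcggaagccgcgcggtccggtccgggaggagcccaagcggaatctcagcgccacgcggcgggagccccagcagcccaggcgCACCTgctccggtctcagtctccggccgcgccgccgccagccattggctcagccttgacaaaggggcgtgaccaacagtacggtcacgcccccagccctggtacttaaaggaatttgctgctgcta

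The windows of Zeb2, Pdgfra and Snai1 each held 1 CACCT, and that of Twist2 held 0. CACCT on either strand was found in 46.0% of 32851 promoter windows of that length. The Snai1 match, 126 bases before the start site, was also the full E-box CACCTG, which 17.2% of windows held on either strand, and each CACCTG contains CACCT. The wider E-box CANNTG, which also takes in CACCTG, was found in 66.2% of windows, and the Snai1 and Pdgfra windows held 1 each. RefSeq has 3 further start sites for Zeb2 inside the deposited gene, and the Vim window lies inside the deposited gene, so those are not shown. The Twist1 window, with 1 CACCT and no CACCTG, is not shown either. No window was available for Snai2 or Cdh1. Zeb1 and Cdh2, both on chromosome 18, were left out of the windows described. A match is a run of letters, and binding was not measured.

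The second comparison asked how the 10 genes differed between norepinephrine and vehicle in each line. Zeb2 was lower with norepinephrine in both lines, and no other gene of the 10 had an interval that left out 0 in both. In shFAK it was at 39.5 CPM with norepinephrine and 45.8 CPM with vehicle, a log2 ratio of -0.21 (-0.38 to -0.05). In shNC it was at 25.2 CPM with norepinephrine and 34.1 CPM with vehicle, a log2 ratio of -0.43 (-0.62 to -0.25).

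This too moved with gene length. In the 1236 longest genes the median norepinephrine ratio was -0.11 in shFAK and -0.28 in shNC, against 0.00 in each over all genes. With the length trend taken off, Zeb2 was at -0.10 (-0.26 to 0.06) in shFAK and -0.07 (-0.26 to 0.12) in shNC, and neither interval left out 0.

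Twist2 was at 9.62 CPM with norepinephrine and 8.25 CPM with vehicle in shFAK, a log2 ratio of 0.22 (-0.14 to 0.58). In shNC it was at 14.5 CPM with norepinephrine and 12.9 CPM with vehicle, a log2 ratio of 0.17 (-0.10 to 0.45). Pdgfra was at 0.02 (-0.28 to 0.32) in shFAK and -0.32 (-0.68 to 0.02) in shNC. Both genes stayed within counting error in both lines.

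Vim had log2 ratios of -0.08 (-0.10 to -0.05) in shFAK and 0.02 (-0.01 to 0.04) in shNC. Twist1 had 15 counts with norepinephrine and 0 with vehicle in shFAK, and the 99% interval of that ratio began at 260.7% of the vehicle level. In shNC it had 9 with norepinephrine and 12 with vehicle, a log2 ratio of -0.22 (-2.13 to 1.5). In all, 23121 genes were detected in shFAK norepinephrine and 20442 in shFAK vehicle. The part of that gap in the Twist1 value was not tested.

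**Figure D5:**
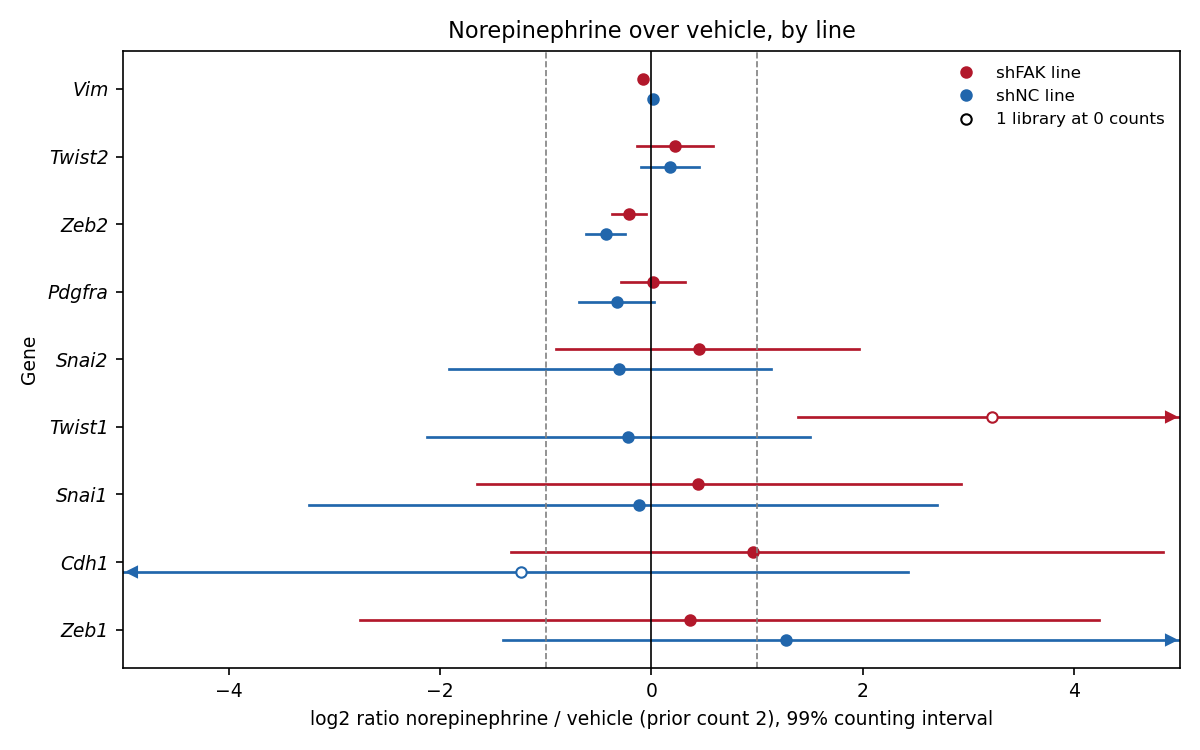
log2 ratios of norepinephrine over vehicle for the 9 detected genes, shFAK line above shNC line, with 99% counting intervals (arrows run past the axis, open points have 1 library at 0 and depend on the prior count of 2; dashed lines mark 2-fold). Zeb2 lies left of 0 in both lines, and Twist1 right of 0 in shFAK.

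Among the 9 detected genes the interval left out 0 for 3 in shFAK (Zeb2, Vim and Twist1), beside 22.7% of all genes past the filter. It did so for 1 in shNC (Zeb2), beside 44.5%. At 1.5-fold or more, Twist1 alone passed in shFAK, beside 1.7%, and 0 in shNC, beside 3.72%. At 2-fold or more, Twist1 alone passed in shFAK, beside 0.874% of all genes, and 0 passed in shNC, beside 0.858%.

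The norepinephrine responses of the lines were also set against each other, as shFAK minus shNC. The difference was 0.22 (-0.02 to 0.46) for Zeb2, 0.34 (-0.11 to 0.80) for Pdgfra and 0.05 (-0.39 to 0.49) for Twist2 on the log2 scale. For Vim it was -0.10 (-0.13 to -0.06). The interval left out 0 for 2 of 9 genes, Vim (lower) and Twist1 (higher), beside 23.2% of all genes. With a prior count of 0.5 or 10 in place of 2 the Twist1 interval ran from -0.24 to 10.94 or from -0.27 to 3.36, so that call was lost. At a prior count of 2, Twist1 alone was past 1.5-fold, beside 1.87%, and past 2-fold, beside 0.915%. With the length trend taken off, the Zeb2 difference was -0.03 (-0.27 to 0.22).

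Related genes were described by counts in the same comparisons. With the length trend taken off, 2061 of all 12351 genes were higher and 3856 lower in shFAK with norepinephrine, and 1855 and 3124 with vehicle. TGF-beta is known to induce SNAIL and ZEB genes. The list of TGF-beta ligands, receptors and SMADs also holds BMP receptors and the pathway inhibitors Smad6, Smad7, Ski and Skil. Its counts therefore give no direction of signalling. In this list 13 of 17 were higher and 1 lower in shFAK with norepinephrine, beside 27.7% and 25.7% of all genes. With vehicle 12 were higher and 0 lower, beside 21% and 20.9%. The list median was 0.38 with norepinephrine and 0.27 with vehicle, and 0.26 and 0.18 with the length trend taken off, when the split was 12 and 1 under norepinephrine, and under vehicle 12 and 0. Tgfbr3, the betaglycan coreceptor, was at 0.90 with norepinephrine and 0.76 with vehicle, and the ligand Tgfb2 at 0.55 and 0.88.

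Mesenchymal genes other than the 10 were mostly higher in shFAK. With norepinephrine 9 of 11 were higher and 1 lower, beside 27.7% and 25.7% of all genes. With vehicle 8 were higher and 1 lower, beside 21% and 20.9%. With the length trend taken off these genes split 10 and 1 under norepinephrine, and under vehicle 7 and 1. Their median was 0.30 with norepinephrine and 0.43 with vehicle, and 0.35 and 0.26 with the length trend taken off. The collagen Col5a1 was at 1.11 with norepinephrine and 0.82 with vehicle, Fn1 at 0.80 and 0.43, and the collagen-modifying enzyme Loxl2, which has near-identical copies, at 0.27 and 0.95. Fn1 was at 0.44 and 0.26 and Loxl2 at 0.13 and 0.88 with the length trend taken off, norepinephrine first in each. Epithelial genes gave 4 of 11 higher and 5 lower in shFAK under norepinephrine, and under vehicle 2 and 4, beside the same shares of all genes. Their medians were -0.35 and -0.21. With the length trend taken off the split was 3 and 5 under norepinephrine, and under vehicle 1 and 4, with medians of -0.26 and -0.18. Krt8 was at -1.60 with norepinephrine and -1.42 with vehicle, Krt7 at -0.78 with norepinephrine and -0.47 with vehicle, and Spint1, a protease inhibitor, at 0.98 and 0.17, the second with an interval that took in 0.

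For the next lists too, 27.7% of all genes were higher and 25.7% lower in shFAK under norepinephrine, and under vehicle 21% and 20.9%. Among 8 kept adherens junction partners, under norepinephrine 5 were higher and 0 lower in shFAK, and under vehicle 5 and 1. With the length trend taken off these became 3 higher and 2 lower under norepinephrine, and under vehicle 2 and 2. Cdh24 was at 0.71 (0.44 to 0.98) with norepinephrine and 0.29 (0.02 to 0.56) with vehicle. Other EMT-associated factors and corepressors gave 6 of 19 higher and 6 lower for norepinephrine libraries and 5 and 6 for vehicle libraries. Without the length trend the split was 3 and 10 for norepinephrine libraries and 3 and 8 for vehicle libraries. Wtip, an Ajuba relative, was at -0.93 with norepinephrine and -0.78 with vehicle, and Snai3, a SNAIL relative with 57 to 114 counts, at -0.43, with an interval that took in 0, and -0.70.

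The remaining lists stand beside the same shares of all genes, 27.7% higher and 25.7% lower under norepinephrine, and under vehicle 21% and 20.9%. Genes for SNAIL and TWIST protein turnover, which set how long these proteins last, gave 3 of 13 higher and 2 lower in shFAK under each treatment. Without the length trend the split was 2 and 9 under norepinephrine, and under vehicle 2 and 4. Gsk3b, the kinase that marks SNAIL for degradation, was at 0.52 with norepinephrine and 0.24 with vehicle, and at 0.21 and 0.09 with the length trend taken off. Of the 5 intermediate filament genes and linkers past the filter, 2 were higher and 2 lower in shFAK under norepinephrine, and under vehicle 2 and 1, against 1 and 2, and 1 and 1, with the length trend taken off. Synm, a filament protein that pairs with vimentin, was at 0.86 with norepinephrine and 0.73 with vehicle. Of the ligands for Pdgfra, Pdgfc averaged 15.4 TPM and Pdgfb 1.06 TPM, at 21 to 35 counts, and Pdgfa had at most 1 count. Among the 10 epithelial-state regulators past the filter, 4 were higher and 0 lower in shFAK under norepinephrine, and under vehicle 2 and 2, against 3 and 2, and 2 and 3, with the length trend taken off. Ehf, at low counts, had 37 and 38 in shFAK and 13 and 8 in shNC, norepinephrine first in each. Trps1, a zinc-finger repressor, was at 0.63 with norepinephrine and 0.41 with vehicle, and at 0.24 and 0.22 with the length trend taken off. Ovol1, an epithelial zinc-finger repressor, was at -0.24 with norepinephrine, with an interval that took in 0, and -0.94 with vehicle.

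With norepinephrine over vehicle, 0 of 17 TGF-beta genes were higher and 3 lower in shFAK, beside 10.4% and 12.3% of all genes. In shNC 3 were higher and 9 lower, beside 21.7% and 22.8%. With the length trend taken off the shNC split was 3 and 5, beside 2480 higher and 2007 lower of all 12351 genes. Mesenchymal genes gave 2 of 11 higher and 7 lower in shFAK, and 2 and 6 in shNC, and with the length trend taken off 2 and 6 in shFAK, beside 869 and 1560 of all genes, and 1 and 7 in shNC.

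The genes most like each of the 4 in pattern were found by the distance between log2 CPM profiles over the 4 libraries, each centred on its own mean, among 9200 protein-coding genes at a mean CPM of at least 5. Zeb2 was nearest to Cpd (distance 0.017) and Fnip1 (0.021). Twist2 was nearest to Stk40 (0.016) and Yif1a (0.043), and Zfp639 (0.020) was among the nearest to Vim. Pdgfra was nearest to Irs2 (0.035) and Lrp1 (0.052). With 4 points, such distances describe these libraries only.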

How the data were processed

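RNA was sequenced from 4 cultures of Myc-CaP cells, 1 library per group, grouped by their titles. The authors deposited raw read counts per gene for 52636 genes. Per the submitters' processing notes they used HISAT2 2.0.5, featureCounts 1.5.0-p3 and mm10. Which annotation release was used, whether counting used strand and how reads with several mappings were handled is not stated in the labels or file headers.

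From the counts, effective library sizes were computed with TMM in edgeR 4.0.16 (R 4.3.3). Genes at a CPM of at least 1 on library totals, before this scaling, in at least 1 library were kept (12351, of which 10818 protein-coding). Ratios are log2 CPM with a prior count of 2. Their 99% intervals are exact Clopper-Pearson intervals of the 2 counts, and those of the difference of responses use a normal approximation on the log scale. The intervals and floors cover counting error only, because 1 library per group leaves no spread between samples to measure. Amplified reads with no molecular identifiers do not each stand for a separate molecule, so the intervals can be too narrow even for that. With 1 library per group no test was run and no p-value is given. "Higher" and "lower" for a list mean an interval that leaves out 0. TPM was computed from the deposited gene length, with 99% Poisson intervals. Near-identical copies (at least 95% identity over at least 100 bases) were sought with minimap2 2.31 on GENCODE M21 transcripts. The ratio computation was tested on simulated counts.

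The 10 genes, the lists and the settings were chosen with earlier results of these data known. Named list genes were up to 3 per list with the largest mean hairpin ratio and up to 2 with the largest mean norepinephrine ratio, at a mean CPM of at least 1, and not all are printed. Other list genes given as levels were picked after their values were seen. Alternatives were other scalings (library size, DESeq2 1.42.0 size factors, upper quartile), filters, prior counts, protein-coding genes only, a 1.5-fold threshold, coding length, and removal of a spline trend with gene length or with length and transcript GC content. After the data were seen the length trend was extended to the lists. A few marker and pattern genes are not reported here.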

Additional observations from a re-analysis of the deposited data

Results flagged for a closer look

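The norepinephrine ratios of 2 genes had opposite signs in the lines, with a difference whose counting interval left out 0. In shNC the interval of each gene's ratio took in 0, so the opposite sign was not resolved. No test of the difference was possible with 1 library per group. Twist1 had 15 counts with norepinephrine and 0 with vehicle in shFAK, and 9 with norepinephrine and 12 with vehicle in shNC. The difference, shFAK minus shNC, was 3.44 on the log2 scale (0.28 to 6.60) and depends on the prior count, because 1 library is at 0: its interval takes in 0 at a prior count of 0.5 or 10. Vim had a difference of -0.10 (-0.13 to -0.06), from log2 ratios of -0.08 in shFAK and 0.02 in shNC, at 36048 to 46449 counts per library. With library size as the only scaling these ratios had the same sign, -0.07 in shFAK and -0.02 in shNC. The difference was then -0.05 (-0.09 to -0.02).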

How the results depend on the processing

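No paired analysis was possible because each group has 1 library. The prior count enters only the interval of the difference of responses, and the 1.5-fold threshold enters no interval. Under those settings the other ratios, and at 1.5-fold the difference too, kept their side by construction, and they are counted here. Of 445 single-gene ratios under other settings, these included, 423 kept their side of the interval, and all 55 of Twist2 did. Those whose interval left out 0 also kept their direction, while the others could change sign and still be counted. By this rule Vim reversed in 3: shFAK over shNC was 0.0053 with norepinephrine under library size alone (-0.08 in the report), and with vehicle -0.0376 without the length trend and -0.041 without length and GC trends (0.01 in the report). The calls of Zeb2 lost with the length trend were also lost with length and GC: 0.16 for shFAK over shNC with norepinephrine, and -0.05 in shFAK and -0.03 in shNC for norepinephrine over vehicle. Pdgfra shFAK over shNC with vehicle lost its call under both as well, at 0.24 and 0.25. With those trends taken off, genes under the filter have no value, so Twist1 leaves each count by construction, and in shFAK Zeb2 lost its call besides: the norepinephrine count in shFAK was 1 gene past the interval and 0 past 2-fold, the count of shFAK over shNC with vehicle past 2-fold was 0, and the difference of responses gave 1 and 0. With a prior count of 0.5 or 10 the difference of responses also gave 1 gene past the interval and 0 past 2-fold, since Twist1 no longer left out 0. Under library size, DESeq2 or upper-quartile scaling, or without a filter, 2 genes in place of 1 left out 0 for norepinephrine in shNC: Zeb2 with Pdgfra under library size, and Zeb2 with Vim under the others. Library size alone put 1 gene past 2-fold for shFAK over shNC with norepinephrine, Cdh1. At 1.5-fold these counts were 3 with norepinephrine and 2 with vehicle.

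Counts over all genes past 2-fold moved with the filter. For shFAK over shNC with norepinephrine there were 401 genes, 663 without a filter and 136 with a CPM of at least 5, and with vehicle 232 and 86 with a CPM of at least 5. For norepinephrine in shFAK there were 108, 403 without a filter, 14 with a CPM of at least 5 and 67 with a prior count of 10. For norepinephrine in shNC there were 106, and 173, 29 and 62 under the same settings, and 49 among protein-coding genes. The difference of responses gave 113, 183 without a filter, 22 with a CPM of at least 5 and 75 among protein-coding genes. At 1.5-fold the counts were 1391, 653, 210, 460 and 231 for the 5 comparisons in that order. Depth limits Zeb1, Snai1, Snai2, Twist1 and Cdh1, at 18 counts or fewer per library.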
